A study of Mus musculus with 2 samples.

Results

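The genes described here are 10 genes of MHC class I antigen presentation, chosen by symbol and not by their values: H2-K1, H2-D1, H2-Q4, H2-Q6, H2-Q7, H2-T23, B2m, Tap1, Tapbp and Nlrc5. All 10 were found, each on a single row, among the 32285 genes of the count matrices. They were measured in single-cell 3′ libraries (10x Genomics, v3 chemistry) of collagenase-digested whole lung from C57BL/6 mice with the I73T mutation of surfactant protein C, a protein that alveolar type 2 (AT2) cells secrete. Both libraries carry that mutation. In this line tamoxifen by gavage (175 mg/kg, once) removes a neomycin cassette and raises the mutant protein, and the study asked about the lung after injury, with day 14 named in its labels. The labels disagree within themselves: the treatment tag reads untreated for the injured title and tamoxifen treated for the control title. Groups follow the titles here, so every direction below would turn around if the tags were right. There was 1 library per group, the number of animals in each was not stated, and no test between groups was possible.

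The injured library held 2702 barcodes with 22314603 UMIs (counted RNA molecules) and the control library 2674 barcodes with 17207816 UMIs. After filtering, 2302 and 2298 cells were left, with medians of 3266.5 and 4485 UMIs per cell, and 1 barcode occurred in both libraries. Clusters were built without the 10 genes and without the related gene lists used below, and were named from marker lists as "-like" classes. Cells and classes were unequally split: neutrophil-like cells numbered 587 against 126 and C1q macrophage-like cells 352 against 6, while nonclassical monocyte-like cells numbered 10 against 100. Levels are in CPM, the usual scaling of counts by the total of the library or class, with an exact Poisson 95% interval. Ratios carry an exact conditional 95% interval, and both intervals cover counting error only, since animals were not replicated. A gene with at least 10 counts over both libraries was called lower or higher when the CPM differed by at least 1.5-fold.

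MHC class I molecules show peptides from inside a cell to CD8 T cells and are read by inhibitory receptors of natural killer (NK) cells. A heavy chain (H2-K1 and H2-D1 are the classical ones of this strain) pairs with beta-2 microglobulin, the product of B2m. The proteasome cuts the peptides, the transporter formed by Tap1 and Tap2 moves them into the endoplasmic reticulum, and tapasin, encoded by Tapbp, holds the empty heavy chain at the transporter. Nlrc5 encodes a nuclear regulator that acts on class I promoters through the factors bound at their conserved upstream box, and interferons raise most genes of the pathway. H2-Q4, H2-Q6, H2-Q7 and H2-T23 are nonclassical heavy chains; H2-T23 encodes Qa-1, which presents signal peptides of other class I molecules to NK receptors.

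Of the 10 genes, 8 lie on mouse chromosome 17 (GRCm38, GENCODE M21). These are Tapbp (33915899-33929292, plus strand), H2-K1 (33996017-34000347, minus), Tap1 (34187553-34197225, plus), H2-D1 (35262730-35267499, plus), H2-Q4 (35379617-35385290, plus), H2-Q6 (35424850-35430055, plus), H2-Q7 (35439155-35443773, plus) and H2-T23 (36029773-36032855, minus). B2m lies on chromosome 2 (122147686-122153083, plus strand) and Nlrc5 on chromosome 8 (94434356-94527272, plus strand). The heavy chains are close relatives. H2-Q6 and H2-Q7 shared 95.4% of their aligned coding bases and H2-K1 and H2-D1 91.5%, while H2-T23 shared 81.1% to 83.2% with the other members. Near the 3′ ends, where these libraries are read, H2-K1 and H2-D1 were distinct: 0.151% and 0% of their 90-base windows also occurred in another gene. In H2-Q6 the share was 26.9%, mostly with H2-Q7, and in H2-T23 it was 13.4%, in H2-Q4 9.49% and in H2-Q7 4.73%. Counts of the H2-Q genes are therefore uncertain one by one, and they are also given as a sum. Tapbp overlaps Zbtb22 on its own strand and Nlrc5 overlaps Mir7072. Tap1 overlaps Psmb9, B2m overlaps Patl2, and H2-Q4, H2-T23, Tapbp and Nlrc5 each overlap a gene on the opposite strand. Reads of the same-strand pairs could not be told apart by strand. Whether the counting used strand is not given in the sources used here, so it is unknown if reads of opposite-strand pairs were kept apart.

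The promoters are shown because the 10 genes are usually described as controlled together through short upstream elements. The RefSeq table (GRCm38.p6) held the 250 bases before the start of 9 of the 10 genes. The stretches below run 5′ to 3′ on the gene's own strand and end before the annotated exons, and capitals mark matches to the motifs spelled out after them.
H2-K1, chr17:34000359-34000458, minus strand: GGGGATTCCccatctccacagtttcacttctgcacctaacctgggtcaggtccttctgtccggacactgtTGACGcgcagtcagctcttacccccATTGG
H2-Q4, chr17:35379444-35379566, plus strand: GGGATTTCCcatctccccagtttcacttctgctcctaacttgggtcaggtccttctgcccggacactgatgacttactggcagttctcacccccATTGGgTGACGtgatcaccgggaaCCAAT
H2-Q6, chr17:35424677-35424799, plus strand: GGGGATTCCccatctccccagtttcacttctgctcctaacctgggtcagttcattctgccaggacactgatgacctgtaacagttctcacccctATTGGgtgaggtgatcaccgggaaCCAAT
H2-Q7, chr17:35439022-35439143, plus strand: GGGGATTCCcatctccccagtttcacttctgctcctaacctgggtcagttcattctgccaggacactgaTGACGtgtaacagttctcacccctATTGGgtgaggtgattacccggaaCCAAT
B2m, chr2:122147548-122147638, plus strand: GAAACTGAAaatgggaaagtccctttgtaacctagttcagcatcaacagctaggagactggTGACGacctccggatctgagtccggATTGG

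Motifs were searched on both strands in the 250 bases before each start, in 32851 such windows. The NF-kB-like motif GGGNNTTCC was found in 5 of the 9 members with a window, H2-K1, H2-D1, H2-Q4, H2-Q6 and H2-Q7, and in 4.98% of all windows. The interferon-response-like motif GAAANNGAA was found in B2m and in H2-T23, and in 7.13% of all windows. In H2-T23 it reads TTCTCTTTC on the gene's strand, 115 to 123 bases before the RefSeq start (36032701). That place lies inside the GENCODE gene given above, as do the whole windows of H2-D1 and Tapbp in theirs. TGACG was present in 6 of 9 members and 17.8% of windows, and ATTGG in 9 of 9 members and 33.8% of windows. The run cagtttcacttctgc was shared by H2-K1, H2-D1, H2-Q4, H2-Q6 and H2-Q7 and was held by 7 windows of the table, the other gene being H2-Q10. These are matches of letters and not measured binding. Only the spellings given were searched, so a window without a match may hold another form of an element.

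Over all cells, the 6 heavy chains were called lower in the injured library, and B2m, Tap1, Tapbp and Nlrc5 were not called. The classical heavy chain H2-K1 stood at 816 CPM (803 to 829) in the injured library and 1349 (1332 to 1368) in the control library, 1.65-fold lower (1.62 to 1.69). H2-D1, the other classical heavy chain, stood at 911 and 1664 CPM, 1.83-fold lower (1.79 to 1.86). The nonclassical chains differed more: H2-T23 was at 105 and 266 CPM (2.53-fold lower, 2.40 to 2.67) and H2-Q7 at 82.8 and 210 CPM (2.54-fold lower, 2.39 to 2.69). H2-Q4 was at 54.7 and 132 CPM and H2-Q6 at 38.9 and 77.3 CPM, and the 3 H2-Q genes summed were 2.38-fold lower (2.28 to 2.48). B2m, the shared light chain, was at 955 and 1403 CPM, 1.47-fold lower, which is under the threshold. Tap1 was at 55.9 and 67.7 CPM and the regulator Nlrc5 at 12.6 and 13.1 CPM. Tapbp, at 216 and 185 CPM, stood 1.16-fold higher (1.11 to 1.22) in the injured library, a direction that turned around with the control class weights described next. Thus 6 of 10 genes were called lower and none higher, where 16.9% of the 15729 genes tested over all cells were called lower and 22.6% higher. The median log2 ratio of injured over control was -0.80 for the 10 genes and 0.08 for all genes tested.

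The libraries differed in cell makeup, and the whole-library values move with it. The injured class levels of the 10 compared classes were therefore weighted by the UMI shares of the control library. All 10 genes summed then stood at 3198 CPM against 4770 CPM, 1.49-fold lower. In the same 10 classes without the weights the injured sum was 2791 CPM, 1.71-fold lower. H2-D1 (1.79-fold) and H2-T23 (1.93-fold) stayed past the threshold, and the other 4 heavy chains stood 1.3-fold (H2-Q6) to 1.5-fold (H2-K1) lower, none of them reaching it. Tapbp then stood at 165 CPM against 177 CPM. Fewer cells of a type and less RNA per cell cannot be told apart in the whole-library sums.

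Class I genes were detected in every class, at very unequal levels. In the control library the 10 genes summed were highest in plasmacytoid dendritic cell (DC)-like cells (11519 CPM, 10687 to 12399, 7 cells), nonclassical monocyte-like cells (11262, 10990 to 11539), endothelial-like cells (11017, 10813 to 11225) and NK cell-like cells (10756, 10435 to 11085). The intervals of these neighbours overlap. Mature DC-like cells followed at 10214 CPM, the mixed ILC2 and T cell cluster at 8328, classical monocyte-like cells at 8031, T cell-like cells at 6883, neutrophil-like cells at 6433, B cell-like cells at 5783 and cDC2-like cells (conventional DC, type 2) at 5063. Alveolar macrophage-like cells (3508 CPM, 3460 to 3555), fibroblast-like cells (3390, 3191 to 3598) and cycling cells (3295, 3165 to 3430) formed a lower level. The lowest levels were epithelial: 755 CPM in AT2-like cells (63 cells), 447 in ciliated-like cells (12 cells) and 240 (209 to 274) in secretory-like cells. In the injured library nonclassical monocyte-like (8216 CPM, 10 cells), mature DC-like (7748) and NK cell-like cells (7719) were highest, and secretory-like cells (398, 347 to 454) were again lowest. No class lacks class I genes, so free RNA was read from Scgb1a1, the secretory cell product: at least 1 of its UMIs was in 82.8% of the B cell-like cells of the injured and 99.7% of those of the control library, at 0.128% and 0.202% of their UMIs.

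**Figure D1:**
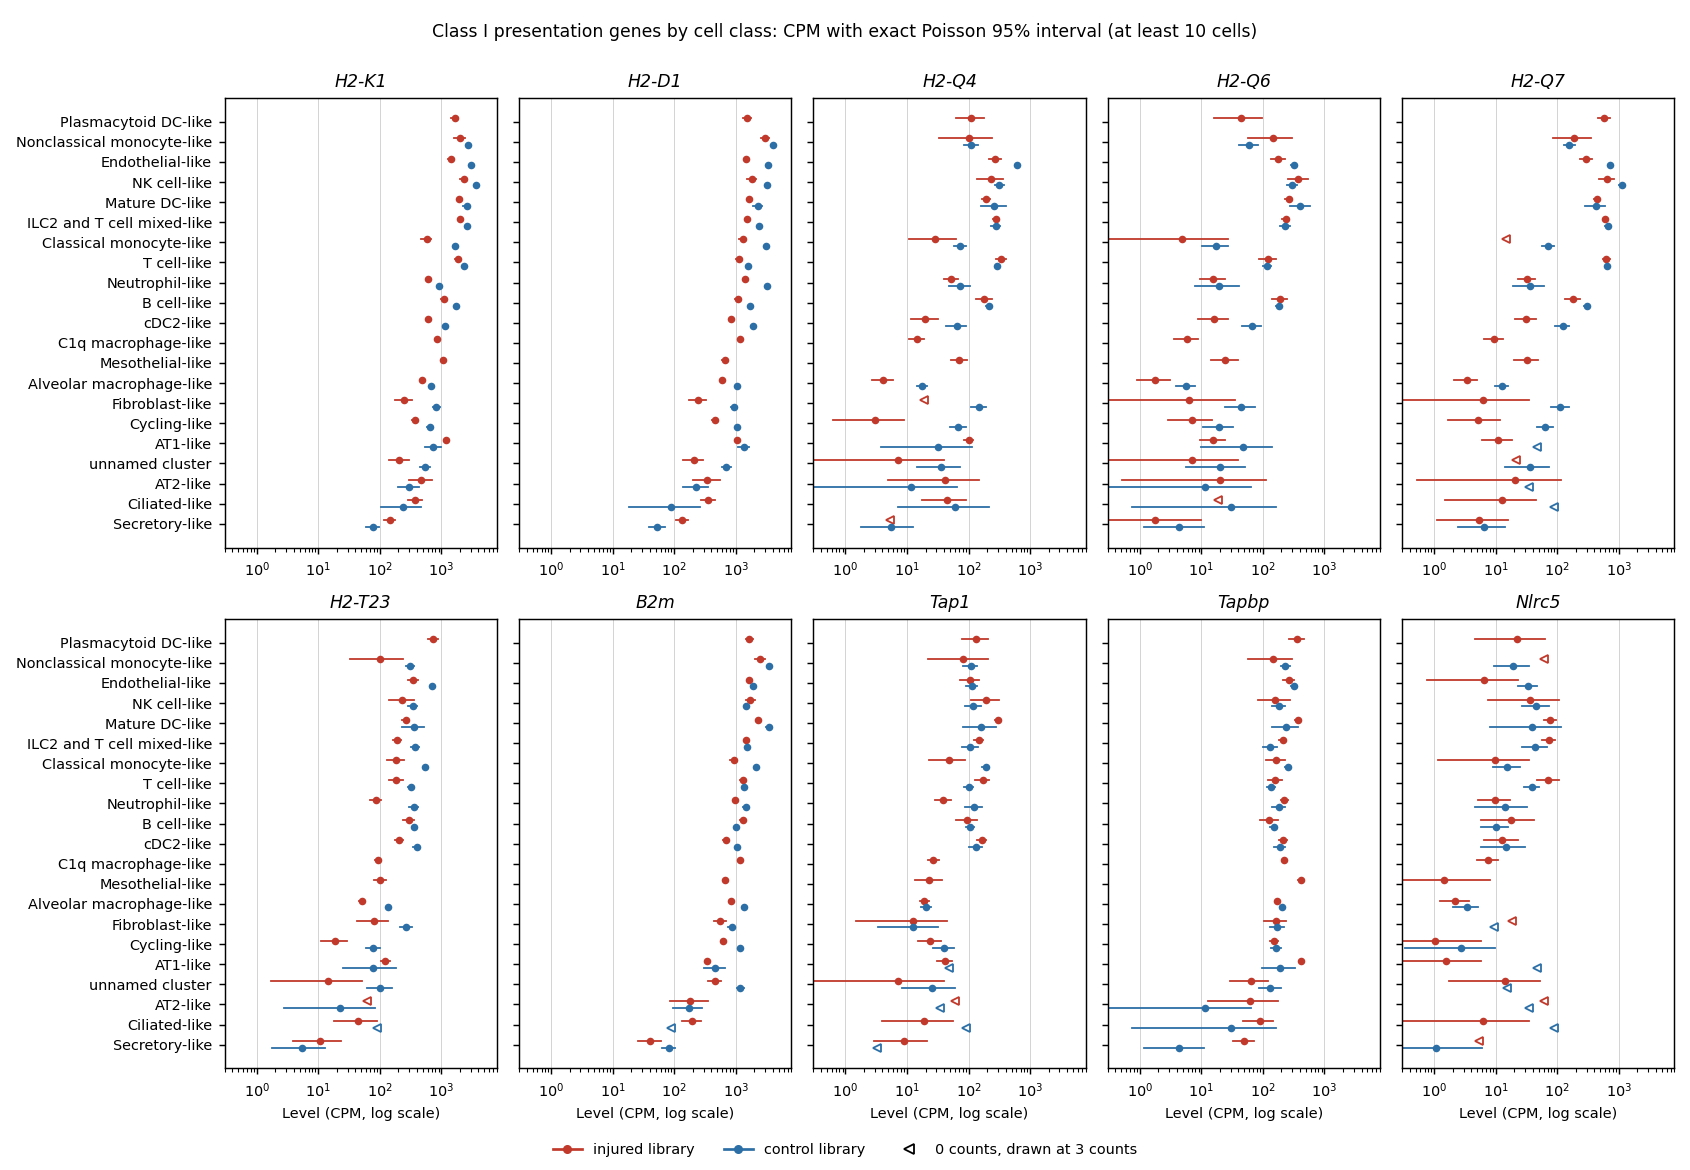
Levels of the 10 genes (x axis, CPM on a log scale) by class (y axis, ordered by the summed control level) in the injured (red) and control (blue) libraries, for classes with at least 10 cells in the library; bars are exact Poisson 95% intervals and open triangles are 0 counts drawn at 3 counts. H2-K1 and H2-D1 run from under 200 CPM in secretory-like cells to over 1000 CPM in lymphoid classes, while Tapbp lies between 100 and 600 CPM in most classes.

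Alveolar epithelial cells were too few for a ratio, among them the AT2-like cells that make the mutant protein. In AT2-like cells (19 injured and 63 control cells) H2-K1 was at 470 CPM (298 to 705) and 297 CPM (194 to 436), H2-D1 at 347 and 229 CPM and B2m at 184 and 172 CPM, all with overlapping intervals. Scgb1a1, the secretory cell product, took 6.20% of the UMIs of the injured and 0.495% of those of the control AT2-like cells. Its part in these levels was not tested. H2-T23 had no count in the injured AT2-like cells and 2 in the control ones, and Tap1 and Nlrc5 had none in either. The cluster named AT1-like (85 and 22 cells) was led by Ager and Cldn18 and also by Cldn4, Clu and Itgb6, genes of a transitional epithelial state. It held more class I RNA than AT2-like cells in both libraries, with H2-K1 at 1187 CPM (1128 to 1249) in the injured and 741 CPM (545 to 986) in the control library, H2-D1 at 1031 and 1340 CPM, and Tapbp at 418 and 189 CPM. Some immune classes were also present mainly in 1 library. Classical monocyte-like cells (19 and 99 cells) had H2-D1 at 1296 CPM (1145 to 1460) and 3053 CPM (2951 to 3158), and NK cell-like cells (19 and 91) had H2-K1 at 2289 and 3618 CPM. Mature DC-like cells of the injured library (103 cells) had the highest Tap1 level of all classes there, 304 CPM, and C1q macrophage-like cells (352 cells) had H2-D1 at 1173 and B2m at 1169 CPM.

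The classical heavy chains were lower in the injured library in most of the 10 classes with at least 30 cells on both sides. H2-D1 was called lower in 8 of 10 classes and H2-K1 in 6 of 10, and each was called higher in secretory-like cells. In endothelial-like cells H2-K1 was at 1433 and 3019 CPM (injured and control, 2.11-fold lower, 1.91 to 2.33) and H2-D1 at 1487 and 3281 CPM (2.21-fold lower, 2.0 to 2.44). Fibroblast-like cells had the largest fold, with H2-D1 at 242 and 948 CPM (3.92-fold lower, 2.80 to 5.62) and H2-K1 at 248 and 833 CPM (3.36-fold lower, 2.40 to 4.80), on 41 and 86 cells. These folds depended on which cells were taken: with coarser clusters (resolution 0.5) H2-D1 was 1.83-fold and H2-K1 1.12-fold lower, and with at least 1000 UMIs and 500 genes per cell 2.02-fold and 1.2-fold, so that H2-K1 was no longer called. In neutrophil-like cells H2-D1 was at 1393 and 3253 CPM (2.34-fold lower, 2.17 to 2.52) and H2-K1 at 599 and 932 CPM (1.56-fold lower, 1.36 to 1.77, not called with size factors). The cDC2-like cells had H2-D1 at 836 and 1887 CPM and H2-K1 at 616 and 1139 CPM. Alveolar macrophage-like cells had H2-D1 at 600 and 1046 CPM (1.74-fold lower, 1.68 to 1.81), and H2-K1 at 490 and 684 CPM, which is 1.40-fold and not called. In T cell-like cells the differences were smaller: H2-K1 was at 1829 and 2299 CPM and H2-D1 at 1111 and 1563 CPM, neither called.

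H2-T23 was called lower in 8 of 10 classes. It was at 85.9 and 354 CPM in neutrophil-like cells (4.12-fold lower, 3.16 to 5.39) and at 50.8 and 136 CPM in alveolar macrophage-like cells (2.67-fold lower, 2.35 to 3.03). In T cell-like cells, where the classical chains were not called, it was at 183 and 317 CPM (1.74-fold lower, 1.33 to 2.29), and in the mixed ILC2 and T cell cluster at 189 and 369 CPM (1.95-fold lower, 1.57 to 2.43). In B cell-like cells it was at 293 and 364 CPM, not called. Its ratio was below 1 in 9 of 10 classes. The exception was secretory-like cells, at 10.7 and 5.45 CPM on 6 and 5 counts (ratio 1.96, 0.50 to 8.14), an interval that spans 1.

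The H2-Q genes differed least in lymphoid and neutrophil-like cells. In T cell-like cells their sum was 1.04 times the control level (0.926 to 1.16), and in the mixed ILC2 and T cell cluster 0.953 times (0.858 to 1.06). It was 1.29-fold lower both in B cell-like cells (1.09 to 1.53) and in neutrophil-like cells (0.895 to 1.82). In endothelial-like cells it was 2.23-fold lower (1.94 to 2.57), in cDC2-like cells 3.74-fold lower (2.71 to 5.20) and in alveolar macrophage-like cells 3.84-fold lower (2.89 to 5.18). H2-Q7 itself was at 629 and 638 CPM in T cell-like cells, 294 and 716 CPM in endothelial-like cells and 31.5 and 122 CPM in cDC2-like cells. Alveolar macrophage-like cells held little of it, 3.37 and 12.4 CPM on 23 and 74 counts. Fibroblast-like cells of the injured library held no H2-Q4 count where the control held 47 (147 CPM), which is at least 7.90-fold lower with the 0 set to 3 counts. Cycling cells held 3 and 50 counts of H2-Q4 (22.3-fold lower, 7.22 to 112), and their lineage mix was not resolved.

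B2m stood closer to the control level than H2-D1 did in each of the 10 compared classes, but not closer than H2-K1 in alveolar macrophage-like, cycling and secretory-like cells. It was called lower in 5 of 10 classes: alveolar macrophage-like (825 and 1382 CPM, 1.68-fold, 1.62 to 1.73), cycling (619 and 1172), cDC2-like (684 and 1054), fibroblast-like (558 and 854) and secretory-like cells (41.1 and 81.8). The calls in cDC2-like and fibroblast-like cells were lost under several other settings. In endothelial-like cells, where both classical chains were over 2-fold lower, B2m was at 1650 and 1886 CPM (1.14-fold lower, 1.04 to 1.3). In B cell-like cells it stood higher, at 1325 and 1010 CPM (ratio 1.31, 1.17 to 1.47), and in the mixed ILC2 and T cell cluster it was at 1482 and 1503 CPM. The number of B2m counts per heavy chain count was higher in the injured library in 7 of the 9 compared classes with enough counts, among them endothelial-like (0.411 against 0.218) and B cell-like cells (0.434 against 0.224). In neutrophil-like cells it was 0.446 against 0.310 over the class, but 0.314 against 0.320 in the cluster that both libraries shared (162 and 120 cells). It was lower in secretory-like cells (0.138 against 0.536), and in alveolar macrophage-like cells the numbers were close, 0.717 and 0.727. UMI counts are counts of molecules, so ratios between genes are per molecule and not per length.

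Of the peptide-loading genes, Tapbp was called lower in none of the 10 classes and stood within 1.23-fold of the control level in 8 of them. It was at 169 and 202 CPM in alveolar macrophage-like, 262 and 316 CPM in endothelial-like, 161 and 172 CPM in fibroblast-like and 223 and 181 CPM in neutrophil-like cells. The 2 classes called higher were the mixed ILC2 and T cell cluster (209 and 132 CPM, ratio 1.58, 1.18 to 2.14) and secretory-like cells (50 and 4.36 CPM on 28 and 4 counts, ratio 11.5, 4.01 to 45.0). Tap1 was called lower in neutrophil-like cells, at 38.5 and 123 CPM (3.19-fold lower, 2.07 to 4.92), and in cycling cells, at 23.5 and 39.8 CPM with an interval that spans 1. T cell-like cells were called higher for Tap1, at 169 and 101 CPM (ratio 1.67, 1.21 to 2.28). After every cell was thinned to 1000 UMIs, 18.8% of 69 injured and 7.17% of 223 control T cell-like cells held a Tap1 UMI (exact binomial 95% intervals 10.4 to 30.1 and 4.16 to 11.4), against 59.4% and 45.3% unthinned. In neutrophil-like cells the thinned shares were 3.51% (2.13 to 5.43) and 14.2% (8.32 to 22), and 7.5% and 26.2% unthinned.

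Nlrc5 was the lowest of the 10, with 250 and 209 counts in all. Its levels were highest in lymphoid and mature DC-like cells: 76.6 CPM in injured mature DC-like cells, 72.7 and 43.4 CPM in the mixed ILC2 and T cell cluster, and 71.4 and 38.9 CPM in T cell-like cells. The T cell-like difference was 1.84-fold higher (1.10 to 3.0) in the injured library. Endothelial-like cells went the other way, at 6.39 and 33.0 CPM on 2 and 33 counts (5.16-fold lower, 1.32 to 44.4). The calls in B cell-like (higher, 5 and 16 counts) and alveolar macrophage-like cells (lower, 15 and 20 counts) have intervals that span 1. After thinning, 13% of injured and 3.59% of control T cell-like cells held an Nlrc5 UMI (6.14 to 23.3 and 1.56 to 6.95), against 34.8% and 19.6% unthinned.

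**Figure D2:**
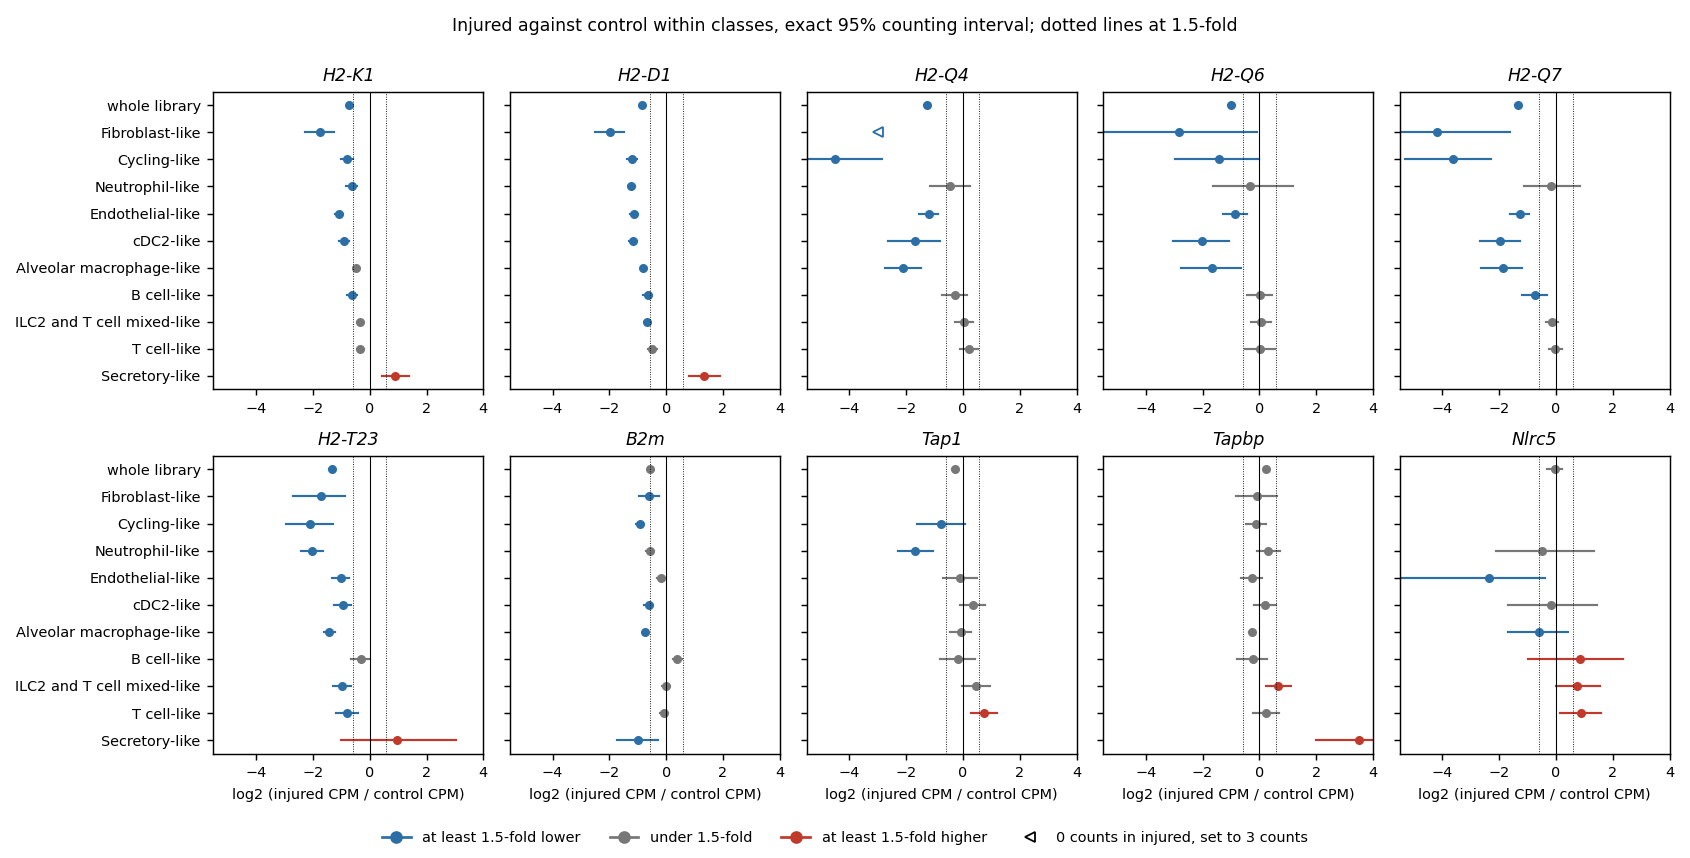
Log2 ratio of injured over control CPM (x axis) of each gene in each compared class and the whole library (y axis), with exact 95% counting intervals cut at the panel edges; blue is at least 1.5-fold lower, red at least 1.5-fold higher, grey under 1.5-fold, and classes with under 10 counts are left out. H2-D1 and H2-T23 lie left of 0 in 9 of 10 classes, and Tapbp lies near 0 in 8.

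Counted by class, alveolar macrophage-like cells had 7 of 10 genes lower and none higher, where 21.4% of all genes tested in the class were lower and 15% higher. The cDC2-like cells also had 7 of 10 lower (background 15.6% lower, 26.3% higher), as did endothelial-like cells (20.8% and 22%). Fibroblast-like cells had 7 of the 8 genes tested lower (33.4% and 22.9%) and cycling cells 8 of 9 (26.5% and 16.7%). Neutrophil-like cells had 4 of 10 lower, H2-K1, H2-D1, H2-T23 and Tap1, in a class with few lower genes (10.2%) and many higher ones (49.2%). B cell-like cells had H2-K1, H2-D1 and H2-Q7 lower and Nlrc5 higher (19.8% and 23.1%), and none of the 3 was called lower with at least 1000 UMIs and 500 genes per cell. The mixed ILC2 and T cell cluster had H2-D1 and H2-T23 lower and Tapbp and Nlrc5 higher (10.5% and 32.5%). T cell-like cells had H2-T23 lower and Tap1 and Nlrc5 higher (13.8% and 30.7%), shares near the background of the class. Medians of the log2 ratio were -1.86 over the tested members in fibroblast-like cells, -1.05 in endothelial-like, -0.92 in cDC2-like, -0.77 in alveolar macrophage-like and -0.54 in neutrophil-like cells, beside -0.14, 0.02, 0.12, -0.11 and 0.55 over all genes tested in those classes.

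Some of these classes are made of different cells in the 2 libraries. The injured alveolar macrophage-like cells came almost wholly from a cluster led by Ctsk, Marco and Spp1 (337 injured and 0 control cells), and the control cells from a cluster led by Fabp1, Cpne5 and Ear1 (2 and 314). The difference in class I genes between the libraries and that between these clusters cannot be told apart. Of the 587 injured neutrophil-like cells, 425 fell in a cluster led by Csf1, Cxcr2 and Il1r2 that held 6 control cells. In the neutrophil-like cluster that both libraries shared (162 and 120 cells, led by Retnlg and S100a9), H2-D1 was at 2189 and 3350 CPM, 1.53-fold lower (1.40 to 1.68) where the whole class gave 2.34-fold. H2-T23 there was at 139 and 323 CPM (2.33-fold lower, 1.66 to 3.29), where the whole class gave 4.12-fold. Tap1 there was at 54.1 and 126 CPM (2.33-fold lower, 1.35 to 4.13), where the whole class gave 3.19-fold. Both endothelial-like clusters had H2-K1 and H2-D1 lower, by 2.14-fold and 1.99-fold in the larger (64 and 268 cells) and by 1.97-fold and 2.32-fold in the smaller (27 and 114 cells). Markers also differed inside other classes. In the mixed ILC2 and T cell cluster Foxp3 was at 210 and 39.1 CPM, with Icos at 491 and 515 CPM. Fibroblast-like cells had Inmt at 242 and 3424 CPM, with Dcn at 4591 and 5318 CPM. The cDC2-like cells had Ccl17 at 2772 and 576 CPM, with Clec10a at 142 and 182 CPM. Whether the kinds of cells differed inside these classes was not tested, so the class I differences there may not be between like cells.

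In secretory-like cells H2-K1, H2-D1 and H2-T23 ran against the other compared classes. Of 5 genes tested, H2-K1 (145 and 77.4 CPM, ratio 1.87, 1.34 to 2.61), H2-D1 (136 and 53.4 CPM, ratio 2.54, 1.75 to 3.71), H2-T23 and Tapbp were higher and B2m was lower, where 49.3% of genes in the class were higher and 10.9% lower. The H2-Q genes summed had 4 injured and 15 control counts, 2.29-fold lower (0.73 to 9.48), an interval that spans 1. The 10 genes together had 223 counts in 79 injured cells and 220 in 117 control cells. Scgb1a1 alone took 44.7% of the UMIs of the injured and 58.2% of the control secretory-like cells, and its part in these CPM ratios was not tested. With doublets kept in, H2-D1 and H2-T23 fell on the other side of 1 in this class, at log2 ratios of -0.03 and -0.33.

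Per cell, the shift was seen in the middle of the distributions. After each cell was thinned to 1000 UMIs (276 injured and 340 control cells had fewer and were left out), the median number of UMIs of the 10 genes was 3 per cell in the injured library (quartiles 1 to 5) and 6 in the control library (3 to 9). Neutrophil-like cells had medians of 3 (2 to 5) and 7 (5 to 9), endothelial-like cells 5 (3 to 8.75) and 10 (6 to 14), and cDC2-like cells 2 (1 to 3) and 4 (2 to 7). T cell-like cells had 5 (4 to 7) and 7 (5 to 9). The share of cells with no heavy chain UMI at this depth was 18.7% and 1.77% in neutrophil-like cells, 36.6% and 18.5% in alveolar macrophage-like cells, and 68.2% and 13.8% in fibroblast-like cells, the last on 22 and 58 cells. In secretory-like cells it was 74.6% and 88.5%. These cells are from 1 library each and are no replicates.

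**Figure D3:**
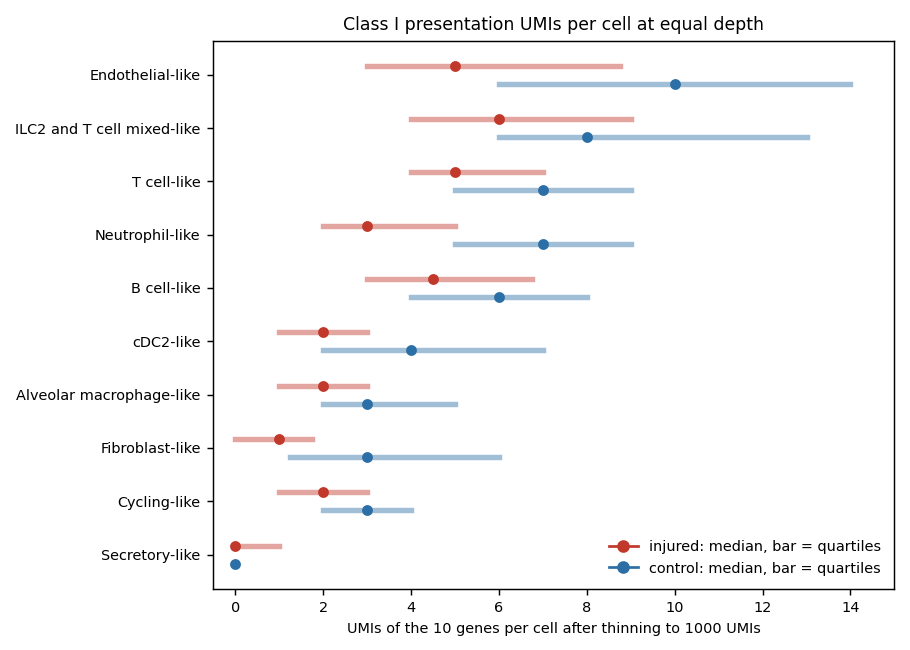
UMIs of the 10 genes per cell after thinning each cell to 1000 UMIs (x axis) by compared class (y axis), with the median as a point and the quartiles as a bar, injured in red and control in blue. The injured median is lower in every class but secretory-like cells, where both medians are 0, and the quartile ranges touch or overlap in every class.

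The balance of the 2 classical heavy chains differed widely between classes. H2-K1 made up 59.5% (58.2 to 60.9) of H2-K1 plus H2-D1 counts in control T cell-like cells and 62.2% (59.2 to 65.2) in injured ones. In neutrophil-like cells it made up 22.3% (20.2 to 24.5) and 30.1% (28.3 to 31.9), so that H2-D1 exceeded H2-K1 by 3.49-fold in the control and 2.33-fold in the injured library. In the neutrophil-like cluster that both libraries shared, the share was 21.7% (19.6 to 23.9) in the control and 20% (17.6 to 22.5) in the injured library, with intervals that overlap. In the 425 injured cells of the cluster that held 6 control cells it was 37.9%. Classical monocyte-like cells (35.1% control and 30.7% injured) also held more H2-D1. B cell-like cells were balanced, at 50.1% and 50.8%, and endothelial-like cells were nearly so, at 47.9% and 49.1%. In alveolar macrophage-like cells (39.5% control, 45.0% injured), cDC2-like cells (37.7% and 42.4%) and the mixed ILC2 and T cell cluster (51.5% and 57.3%) the share was higher in the injured library, with intervals that do not overlap in the first and the last; the alveolar macrophage-like cells again come from different clusters. H2-Q genes made up 25.8% of heavy chain counts in injured and 20.1% in control T cell-like cells, and 0.802% and 1.86% in alveolar macrophage-like cells.

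**Figure D4:**
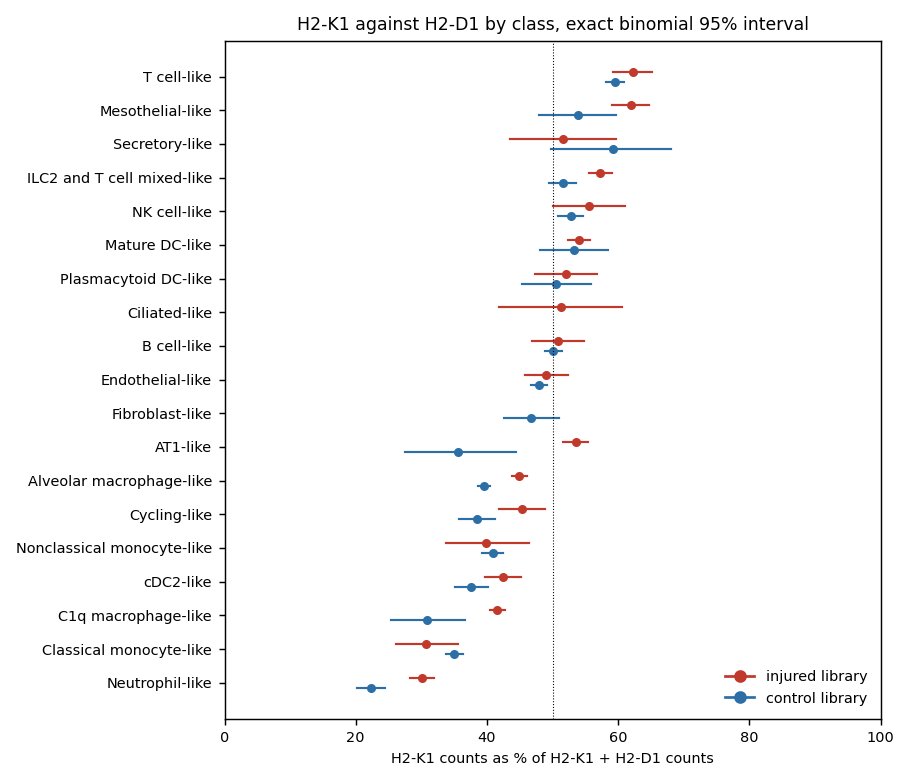
H2-K1 counts as a percent of H2-K1 plus H2-D1 counts (x axis) by class (y axis), injured in red and control in blue, with exact binomial 95% intervals, for classes with at least 100 heavy chain counts in the library. The neutrophil-like class as a whole sits at 22.3% and 30.1%, T cell-like cells near 60%, and the dotted line marks 50%.

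The sources of the class I molecules differed by gene. Alveolar macrophage-like cells held 34.5% of all injured UMIs and 29.8% of B2m counts, but 20.7% of H2-K1 counts. In the control library they held 37.2% of all UMIs, 36.7% of B2m, 18.9% of H2-K1 and 40.5% of Tapbp counts. Endothelial-like cells gave 29.2% of the control H2-Q4 counts and 21.3% of H2-Q7, and T cell-like cells 26.4% of H2-Q7 and 25.8% of Nlrc5. In the injured library the mixed ILC2 and T cell cluster gave 33.0% of H2-Q7 and 26.0% of Nlrc5 counts. Mature DC-like cells gave 26.2% of Tap1, 29.2% of Nlrc5 and 32.3% of H2-Q6 counts.

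Among the other heavy chains, H2-T22 (42.4 and 86.3 CPM, 2.03-fold lower, 1.86 to 2.22) and H2-T24 (1.36 and 6.81 CPM) were lower, and H2-Q2 (44 and 11 counts) and H2-M2 (82 and 31 counts) were higher, of 6 tested. H2-M3, which presents formylated peptides, was at 28.1 and 38.7 CPM and not called. Of the 6 class I-like genes, Cd1d1, Fcgrt and Azgp1 were lower and Procr, the endothelial protein C receptor, was higher, at 7.17 and 2.06 CPM (ratio 3.48, 2.37 to 5.24). Fcgrt, the neonatal Fc receptor, was at 72.8 and 116 CPM. Beside these counts, 16.9% of all genes tested over all cells were lower and 22.6% higher.

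Of 11 genes of peptide generation, 2 were lower and none higher. They were the immunoproteasome subunits Psmb8 (185 and 297 CPM, 1.6-fold lower, 1.54 to 1.68) and Psmb9 (69.0 and 125 CPM, 1.81-fold lower, 1.69 to 1.94). Psmb6, a subunit of the standard proteasome, was at 225 and 170 CPM. Within classes Psmb9 was at 131 and 276 CPM in endothelial-like, 42.6 and 170 CPM in neutrophil-like and 33.8 and 64.7 CPM in alveolar macrophage-like cells, each called lower. Of 6 genes of peptide loading, Tapbpl was lower (19.7 and 29.7 CPM). The shares called lower in the peptide generation and loading lists lay near the 16.9% of all genes tested over all cells. Tap2, the partner of Tap1, was at 49.6 and 68.9 CPM and the chaperones Canx and Pdia3 at 395 and 286 CPM and 335 and 254 CPM, none of them called. The medians of these lists, 0.00 and 0.31 on the log2 scale, lay on either side of the 0.08 of all genes.

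Of 16 genes that regulate class I transcription, 5 were lower and none higher, among them Irf2 (74.4 and 141 CPM), Irf9 (22.1 and 37.8 CPM), Irf1 (33.7 and 50.6 CPM) and Rfxank. Of all genes tested over all cells, 16.9% were lower and 22.6% higher. The interferon genes were barely seen. Ifng had 12 and 27 counts, and Ifnb1, Ifna4 and Ifnl2 had none in either library, so a difference was not detectable at this depth. Among 9 tested genes for interferons, receptors and their kinases, Ifng was lower and Jak2 was higher, at 98.3 and 30.4 CPM (ratio 3.23, 2.92 to 3.57). Ifngr1 stood at 213 and 269 CPM and Ifngr2 at 84.5 and 76.1 CPM.

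Interferon-stimulated genes were lower in the injured library, 16 of 16, with a median log2 ratio of -1.74, where 16.9% of all genes tested were lower. Isg15 was at 13.6 and 98.6 CPM (7.23-fold lower, 6.35 to 8.26), Ifit3 at 1.72 and 33.9 CPM and Ifitm3 at 225 and 951 CPM. By class the list and the 10 genes ran together in some classes and not in others. In fibroblast-like cells 8 of 9 interferon-stimulated genes were lower (median -1.82), beside 7 of 8 class I genes with a median of -1.86. Of all genes tested in that class 33.4% were lower (median -0.14). In secretory-like cells 4 of 5 were higher (median 0.79), as were 4 of 5 class I genes (median 0.97). Of all genes tested there 49.3% were higher (median 0.56), so both lists lay on the side of the whole class. In neutrophil-like cells 14 of 14 interferon-stimulated genes were lower (median -3.00), among them Isg15 at 31.1 and 1707 CPM, beside 4 of 10 class I genes. There 10.2% of all genes tested were lower and 49.2% higher. Of the 587 injured cells of this class, 425 came from a cluster with 6 control cells. The interferon-stimulated list was not measured separately in the shared cluster. This list and the transcription list overlap. In T cell-like cells 8 of 15 were lower, with a median of -0.74, beside 0.01 for the 10 genes. In alveolar macrophage-like cells only Ifitm3 of 11 was lower and only Ifit1 was higher (median -0.03), beside 7 of 10 class I genes with a median of -0.77. Ifit1, which binds viral RNA, rested on 10 counts in the injured library and 1 in the control library, 8.72-fold with a counting interval of 1.24 to 378.3. There Isg15 was at 7.77 and 5.88 CPM. In endothelial-like (11 of 16, median -1.19) and cDC2-like cells (9 of 10, median -1.55) both groups were mostly lower. Of all genes tested, 20.8% were lower in endothelial-like and 15.6% in cDC2-like cells, 13.8% in T cell-like and 21.4% in alveolar macrophage-like cells. Whether the class difference between the 2 groups exceeds the spread between animals was not tested, with 1 library per group.

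**Figure D5:**
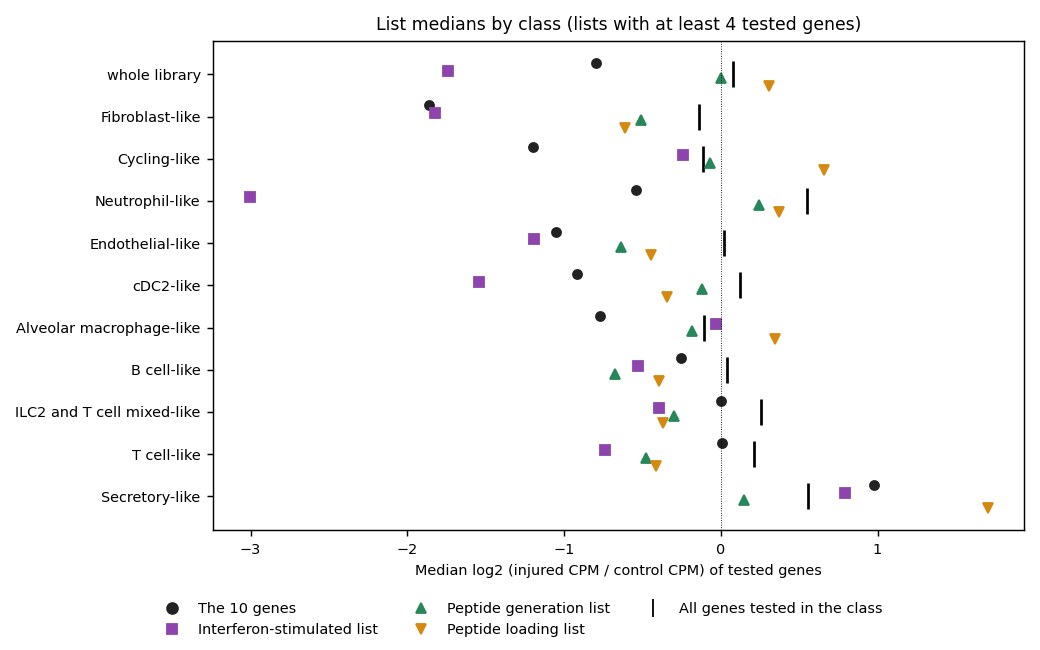
Median log2 ratio of injured over control CPM (x axis) over the tested genes of 4 groups by class (y axis): the 10 genes (black circles), interferon-stimulated (purple squares), peptide generation (green triangles) and peptide loading (orange triangles), with a black tick at the median of all genes tested. In neutrophil-like cells the interferon-stimulated median is -3.00 and that of the 10 genes -0.54, and in alveolar macrophage-like cells they are -0.03 and -0.77. Both classes are made largely of different clusters in the 2 libraries.

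Of 14 genes that read class I molecules, 11 were lower over all cells, where 16.9% of all genes tested were lower. Klra4 (2.47 and 29.1 CPM) and Klra7 (1.3 and 18.3 CPM), which are Ly49 receptors of NK cells, and Cd8b1 (12.8 and 48.7 CPM), a chain of the CD8 coreceptor, were among them. NK cell-like cells numbered 19 of 2302 and 91 of 2298, and T cell-like cells 69 and 225. Within T cell-like cells 0 of 4 tested genes of this list were lower and 2 higher, where 13.8% of all genes tested in the class were lower and 30.7% higher. Cd8b1 was at 517 and 495 CPM there, but Cd8a, the other CD8 chain, at 311 and 158 CPM. Whether the share of CD8 T cells in this class differed was not tested. In the mixed ILC2 and T cell cluster 3 of 9 were lower and 1 higher (10.5% and 32.5% of all genes tested). In cDC2-like cells 1 of 5 was lower and 3 higher (15.6% and 26.3% of all genes tested). Over all cells Lilrb4a, an inhibitory receptor of myeloid cells, was higher, at 403 and 195 CPM (ratio 2.07, 1.99 to 2.16). Of 9 MHC class II genes, H2-Oa and H2-Ob, which are made mostly by B cells, were lower (12.4 and 34.5 CPM, and 7.88 and 50.7 CPM), and the class II chaperone Cd74 was at 3009 and 4070 CPM and not called.

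Across 28 class-by-library points with at least 20 cells, H2-K1 and H2-D1 varied together, as did the 3 H2-Q genes. On log2(CPM + 10) the Pearson r was 0.92 for H2-K1 with H2-D1 and for H2-Q6 with H2-Q7, and the median over all pairs of the 10 genes was 0.75. H2-D1 was closer to B2m (0.87) than to H2-Q6 (0.61). Tapbp ranged from 0.34 with H2-Q6 and 0.35 with Nlrc5 and H2-Q7 to 0.67 with H2-K1, 0.73 with B2m and 0.75 with H2-D1, and Tap1 had 0.78 with H2-K1 and 0.80 with H2-T23, while Nlrc5 had 0.86 with H2-Q7 and 0.82 with Tap1. By Spearman rank correlation Tapbp was less close, at 0.40 with H2-K1, 0.46 with H2-D1 and 0.47 with B2m. The points share libraries, depth and scaling, H2-Q6 and H2-Q7 also share sequence, and no p-value is given. Of 4847 other genes at sufficient level, the most like the summed class I level were Yy1 (0.91), Kat6a (0.91), Cep350 (0.91), Ddx24 (0.90), Rbm39 (0.90), Git2 (0.89), Ppp1r12a (0.89), Ddx5 (0.89), Rsf1 (0.89) and Ascc3 (0.89). Their Spearman correlations were lower, from 0.68 (Ddx5) to 0.85 (Ppp1r12a). Over all cells these genes stood at 0.611 (Ddx24) to 0.862 (Yy1) times the control level, on the same side as the heavy chains. They were picked for following the summed class I level over points of both libraries, so this shared side is no separate evidence. How much the secretory-like points, where Scgb1a1 took a large part of the UMIs, weigh in the correlations was not tested.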

How the data were processed

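Per the file headers the matrices came from Cell Ranger 4.0.0, and the deposited numbers are raw UMI counts, whole numbers for each gene in each barcode. Among the tools in the submitters' processing notes are STAR (2.7.2c), featureCounts (1.6.3) and DESeq2, and the builds are GRCm38 and mm10. Which of them served these libraries, and how strand and shared reads were handled in the count, is not given in the sources used here. Of the 32285 gene IDs, 32158 were found in GENCODE M21.

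Barcodes with at least 500 UMIs, at least 200 genes and at most 15% mitochondrial UMIs were kept, which removed 356 and 332. The cells with the highest score against simulated doublets were removed (44 and 44, 1.88% of cells that passed). The 2000 most variable genes, without the members and related lists, gave 30 principal components and a graph of 20 neighbours that was clustered with the Leiden method at resolution 1. A class took the name of the list with most markers among the 10 leading genes that also had most markers (at least 3) raised 3-fold and found in 20% of the cells. The name of the mixed cluster was chosen after the clusters were seen, and a cluster of 106 and 129 cells (median 958 UMIs) stayed unnamed.

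Counts were summed per library and class and given as CPM. A count of 0 was bounded at 3 counts. With 1 library per group no p-value or standard error was computed. On simulated counts with 200 genes changed, the call found 100% of the raised and lowered genes over all cells. Only well-counted genes were changed, by more than the 1.5-fold threshold and with counting error alone, so this outcome was nearly fixed by the setting. It does not bear on genes with few counts within classes or on the spread between animals. The planned comparison of proteins was replaced by identity of coding bases, and stretches of promoter that overlap an annotated exon are not printed. From each list up to 4 genes were named, those with the largest log2(CPM + 10) ratio and at least 50 counts, with any gene that a count of 5 or fewer refers to; values of named genes within classes were chosen after they were seen. A gene counted in the lists and a motif are not reported here by name. Genes most like the members needed 200 counts and a median of 20 CPM. The members and lists were chosen with earlier results of these data known. Python 3.11.15, numpy 2.4.6, scipy 1.17.1, scikit-learn 1.9.0, python-igraph 0.11.9 and leidenalg 0.10.2 were used.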

Additional observations from a re-analysis of the deposited data

How the results depend on the processing

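No paired analysis was possible because each group had 1 library. Of 1338 values of single genes under other settings, 1199 kept their direction and side of the threshold, 71 dropped under it, 20 passed it, 44 that were not called crossed to the other side of 0 (over all cells Tap1 and Tapbp with control class weights, at log2 ratios of 0.12 and -0.10, and Nlrc5 under several settings), and 4 that were called turned around: H2-Q6 in endothelial-like cells (log2 ratio 0.13) and H2-T23 in secretory-like cells (-0.0586) with every cell weighted the same, and H2-D1 (-0.0342) and H2-T23 (-0.33) in secretory-like cells without doublet removal. Where a setting moved the number of genes called, its cause was not tested unless the setting itself is a stricter call. At a 2-fold call the whole library had 3 lower, alveolar macrophage-like and cDC2-like cells 4, cycling cells 5, secretory-like cells 0 lower and 2 higher, and B cell-like cells, T cell-like cells and the mixed ILC2 and T cell cluster 0 lower and 0 higher. With 10 CPM added B cell-like cells had 0 higher. With 50 CPM added alveolar macrophage-like cells had 3 lower, secretory-like cells 0 lower, and B cell-like cells, T cell-like cells and the mixed cluster 0 higher. With size factors the mixed cluster had 1 lower and T cell-like cells 2. Every cell weighted the same gave 1 higher in cDC2-like cells. Thinning to 1000 UMIs, which leaves fewer counts, gave 3 lower in alveolar macrophage-like cells, 4 in cDC2-like cells, 2 lower and 1 higher in cycling cells, 2 lower in T cell-like cells, 0 lower and 0 higher in B cell-like cells, 2 higher in secretory-like cells and 0 higher in the mixed cluster. Control class weights gave 2 lower over all cells. A mitochondrial limit of 10% gave 1 higher in the mixed cluster. At least 1000 UMIs and 500 genes gave 0 lower in B cell-like and 1 higher in T cell-like cells. Without doublet removal secretory-like cells had 2 higher. In fibroblast-like cells H2-K1 fell from 3.36-fold to 1.12-fold lower at resolution 0.5. Resolution 2 gave 1 higher in T cell-like cells. With each library clustered alone B cell-like cells had 0 lower, the mixed cluster 1 higher, T cell-like cells 4 higher and cDC2-like cells 1 higher. Only clusters with at least 10 cells from each library could be used for no value in alveolar macrophage-like cells. The median correlation between members was 0.74 over points with at least 50 cells and 0.75 with 1 CPM added. Depth limits Nlrc5 and the H2-Q genes in small classes, where intervals span 1.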
